A study of Mus musculus with 18 samples.

Results

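Sphingolipids are membrane lipids built on a long-chain base, and ceramide is their central intermediate. Ceramidases split ceramide into sphingosine and a fatty acid, sphingosine kinases phosphorylate the sphingosine to sphingosine 1-phosphate (S1P), and a transporter carries S1P out of the cell to act on G protein-coupled receptors. In blood vessels S1P is known as a signal that supports the endothelial barrier, mainly through S1pr1. The genes described here are 10 members of this pathway out of 21638 genes in the deposited count table: the ceramidases Acer2, Acer3 and Asah1, the ceramide-making enzymes Degs1 and Cers2, the kinases Sphk1 and Sphk2, the S1P lyase Sgpl1, the exporter Spns2 and the receptor S1pr1. They were chosen by name, with Acer2 in the lead because its level was already known to be higher after arterial occlusion on both sides of the brain. All 10 were found in the table, and all 10 passed the filter on low counts (at least 3 libraries had to hold 10 or more counts), Sphk1 through only 4 libraries, all of them from occluded mice.

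The cells were endothelial cells of the adult mouse cortex, sorted as positive for CD31 and negative for CD41 and CD45, and taken 7 days after surgery. Middle cerebral artery occlusion (MCAO) is a surgical model of ischaemic stroke, in which the ipsilateral side is the occluded one and the contralateral side is the opposite one. The 18 libraries formed 6 groups of 3: Sham ipsilateral, Sham contralateral, MCAO ipsilateral and MCAO contralateral, all labelled WT, and the ipsilateral side of MCAO mice labelled Hdac2 ECKO or Ezh2 ECKO. ECKO marks an endothelial deletion, made with Hdac2lox/lox or Ezh2lox/lox alleles and Cdh5CreERT2, a tamoxifen-activated recombinase driven by the endothelial Cdh5 promoter. Every group was labelled as treated with tamoxifen at 75 mg/kg (5 doses from day 0 to day 4), the WT groups included. The sources used here do not give strain, exact age or animals per library, so p-values measure the spread between these libraries, which may be partly technical. Whether a shared replicate number means that both hemispheres of 1 mouse were used is not given either.

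Library totals ran from 25791401 to 57576255 counts. Endothelial markers (10 genes) summed to between 5617 and 8469 CPM (counts scaled to a TMM-adjusted library total of 1e6) in every library, against at most 276 CPM for the 6 neuronal markers. Red cell markers (8 genes) summed to more, from 19240 to 298000 CPM, in every library outside the Ezh2 ECKO label. Under that label they summed to at most 671 CPM. Neither deletion was visible in the transcript of its target. The Hdac2 level was 76.8 ± 16.7 CPM (SD, n = 3) under the Hdac2 ECKO label and 82.9 ± 14.0 CPM in MCAO ipsilateral. The Ezh2 level was 13.4 ± 5.76 CPM under the Ezh2 ECKO label and 6.44 ± 1.77 CPM in MCAO ipsilateral. The table gives a single value per gene, so this check cannot see the loss of a floxed exon, and the groups are called by their labels below. MCAO contralateral replicate 1 and Ezh2 ECKO replicate 2 were the libraries least like the others. Their median correlations with the other libraries were 0.802 and 0.835, against a median of 0.925 over the 18 libraries, and where a value rests on them, the value of the other libraries is given beside it.

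Per kilobase of gene feature length, the scale on which levels of single genes are compared here, S1pr1 was the most abundant of the 10 genes and Sphk1 the least. Means over the 18 libraries were 175 CPM per kilobase for S1pr1, 39.7 for Acer2, 37.3 for Degs1, 34.3 for Asah1, 20.4 for Cers2, 8.08 for Sphk2, 5.56 for Spns2, 1.88 for Acer3, 1.29 for Sgpl1 and 0.0275 for Sphk1. S1pr1 was above Acer2, and Sgpl1 above Sphk1, in 18 of 18 libraries with no overlap of their ranges. The other neighbours in this order overlapped in range, although Spns2 was above Acer3 within each of the 18 libraries. Acer2 and Degs1 could not be ordered, with Acer2 higher in 9 of 18 libraries. Among all 17094 tested genes, 97.7% had a lower mean level per kilobase than S1pr1, 92.4% than Acer2 and 1.32% than Sphk1.

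Acer2 (mm10, chromosome 4, 86874396 to 86934822, plus strand) and Sgpl1 (chromosome 10, 61098642 to 61147703, minus strand) are the genes on which the later results mainly turn, so the sequence before their start is shown. Both come from RefSeq (GRCm38.p6) and stop at the start of the gene in the deposited table, so no transcribed base of that annotation is included. Capitals mark GC boxes, GGGCGG or its reverse complement CCGCCC, the binding motif of Sp-family transcription factors.
Acer2 chr4:86874164-86874395, plus strand: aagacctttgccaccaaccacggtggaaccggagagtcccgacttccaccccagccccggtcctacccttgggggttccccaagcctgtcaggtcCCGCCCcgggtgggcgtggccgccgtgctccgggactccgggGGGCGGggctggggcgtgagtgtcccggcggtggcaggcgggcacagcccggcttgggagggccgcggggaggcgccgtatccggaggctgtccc
Sgpl1 chr10:61147704-61147934, minus strand: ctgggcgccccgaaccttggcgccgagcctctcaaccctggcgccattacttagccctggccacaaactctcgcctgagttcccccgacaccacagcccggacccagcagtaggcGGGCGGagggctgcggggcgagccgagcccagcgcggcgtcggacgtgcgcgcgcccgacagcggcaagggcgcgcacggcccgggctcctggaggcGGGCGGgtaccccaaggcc
In the full window of 250 bases before the RefSeq start, Acer2 had GC boxes starting 155 and 113 bases before the start and Sgpl1 had them at 135, 38 and 8 bases. The bases were 73.2% G or C for Acer2 and 74.8% for Sgpl1, against a median of 52.4% over 32841 mouse promoters of that length. A GC box was found in 32.7% of all those promoters, on either strand. The hypoxia response core GCGTG occurred 142 and 100 bases before the Acer2 start, and 28.2% of all promoters held it. The other core form, ACGTG, occurred 92 bases before the Sgpl1 start, and 16.6% of all promoters held it. RefSeq promoters were matched for 8 of the 10 genes (15 start sites), of which 5 held a GC box, 4 GCGTG and 6 ACGTG in at least 1 start site. The palindrome CACGTG, an E-box bound by clock and MYC-type factors that contains ACGTG, was found in 3 of the 8 genes and in 6.02% of all promoters. TGANTCA (AP-1) was found in 2 genes and 6.75% of promoters, TTCNNNGAA (STAT) in 2 and 7.02%, CCAAT in 4 and 33.9%, and TATAAA in 1 and 12.4%. TGACGTCA (cyclic AMP response element) and ACANNNTGT (glucocorticoid receptor core) were found in 0 of the 8 genes, against 1.55% and 5.84% of promoters. The counts of genes take any start site of a gene, while the shares are of single promoters, so the counts and shares are not compared. These matches are descriptions of letters in these windows.

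Acer2 encodes the Golgi alkaline ceramidase, which supplies sphingosine for S1P. It was at 152, 153 and 131 CPM in Sham ipsilateral and at 140, 133 and 160 CPM in Sham contralateral. After occlusion it was at 552, 457 and 269 CPM on the ipsilateral side and at 537, 444 and 283 CPM on the contralateral side. Each of the 6 MCAO libraries was above each of the 6 sham libraries, and the replicate labelled 3 was the lowest MCAO library on both sides. The fitted log2 difference from sham was 1.55 ± 0.34 (SE) on the ipsilateral side, a fold of 2.93, and 1.55 ± 0.34 on the contralateral side, a fold of 2.92. Acer2 was chosen for this difference, which is therefore a description with no test.

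**Figure D1:**
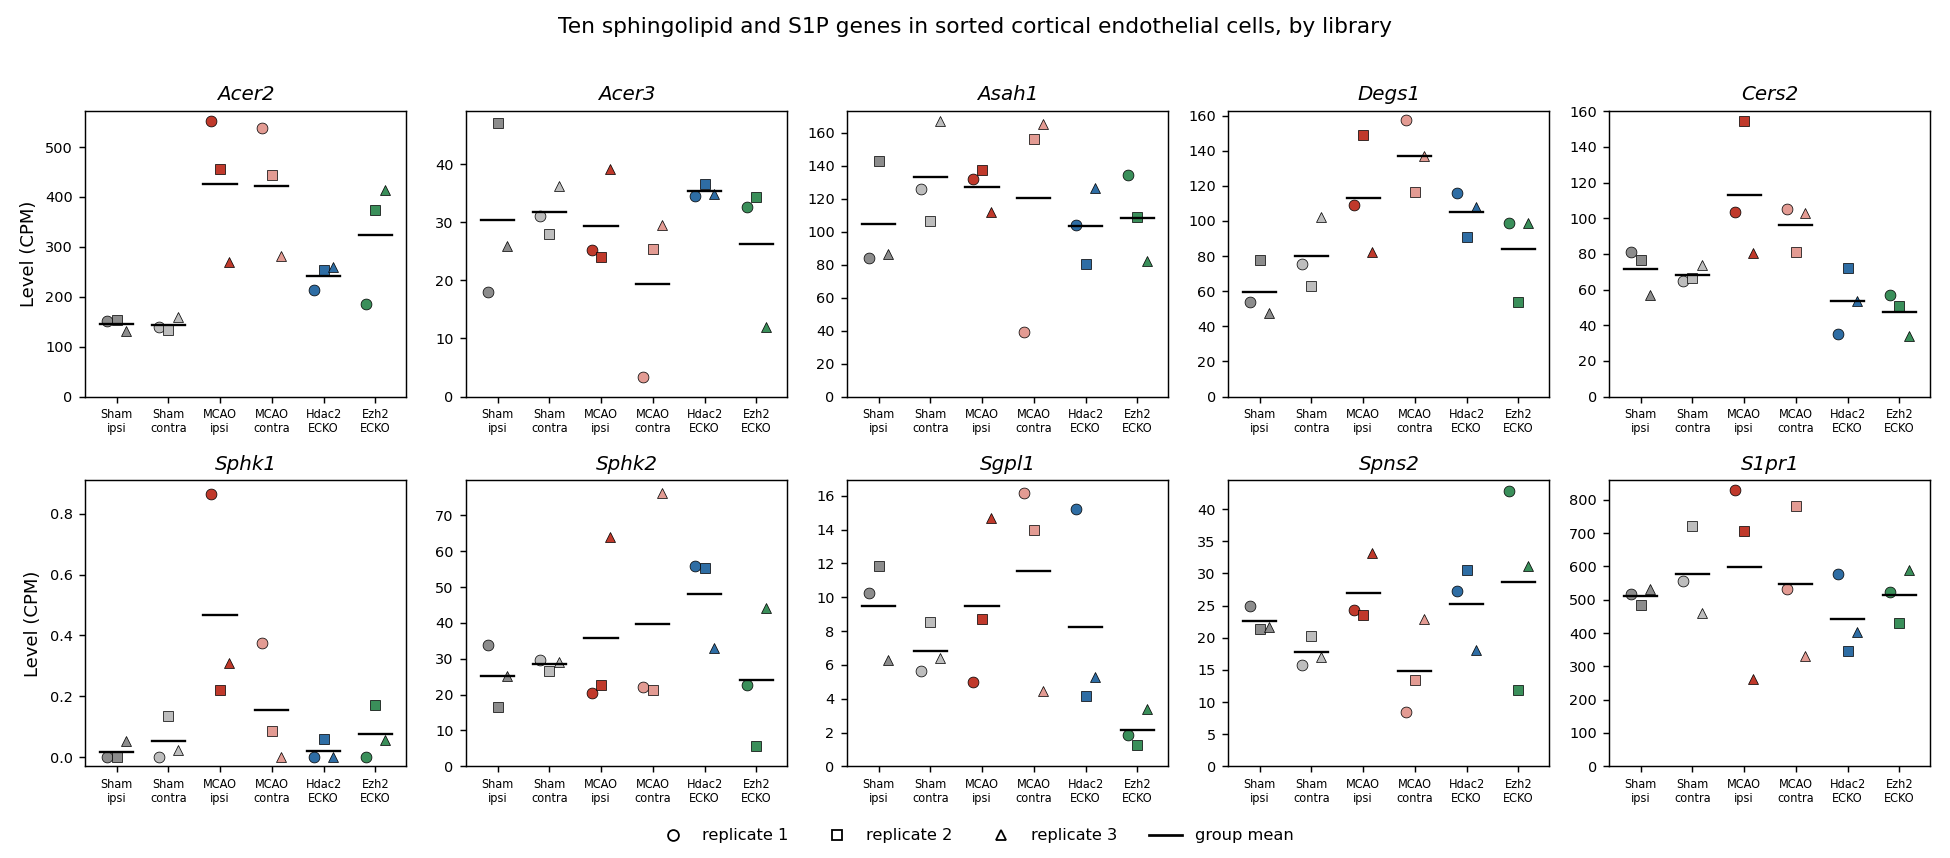
Level of each of the 10 genes (vertical axis, CPM from 0, a separate scale per gene) in each of the 18 libraries, by group on the horizontal axis; circles, squares and triangles are replicates 1, 2 and 3, and bars are group means. Acer2 runs from 131 to 160 CPM in the 6 sham libraries and from 269 to 552 CPM in the 6 MCAO libraries, and Sgpl1 is at 3.41 CPM or below in the libraries labelled Ezh2 ECKO.

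The choice of Acer2 used both sides, so the differences between its sides are also a description with no test. The ipsilateral less contralateral log2 difference of Acer2 was 0.02 after occlusion and 0.01 in sham.

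In the libraries labelled Hdac2 ECKO, Acer2 was at 214, 253 and 260 CPM, above every Sham ipsilateral library and below every MCAO ipsilateral library. Under the Ezh2 ECKO label the libraries had 187, 373 and 414 CPM, above sham and overlapping MCAO ipsilateral. The log2 difference of the Hdac2 ECKO label from MCAO ipsilateral was -0.81 ± 0.34 (95% interval -1.51 to -0.12), and it did not pass the test over all genes (edgeR adjusted p = 0.448). That comparison reuses the MCAO libraries in which Acer2 was already known to be high. Against Sham ipsilateral, the difference was 0.73 ± 0.34 for the Hdac2 ECKO label (adjusted p = 0.659) and 1.16 ± 0.34 for the Ezh2 ECKO label (adjusted p = 0.451), both by edgeR. The differences from sham use the sham libraries that were part of the choice of Acer2. Nothing is therefore read from the p-values of Acer2 against MCAO ipsilateral or Sham ipsilateral. Between the deletion labels Acer2 differed by -0.42 (-1.12 to 0.27, Hdac2 less Ezh2, edgeR adjusted p = 0.702).

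Markers of some other cells differed between sham and MCAO libraries. The 10 pericyte and smooth muscle markers summed to between 103 and 200.5 CPM in the 6 sham libraries, to between 40.2 and 104 CPM in MCAO ipsilateral and to between 17.6 and 68.1 CPM in MCAO contralateral. The 8 microglia and macrophage markers summed to between 3.17 and 7.35 CPM in sham, between 8.32 and 22.9 CPM in MCAO ipsilateral and between 6.81 and 15.2 CPM in MCAO contralateral. The 6 neuronal markers summed to between 57.4 and 111 CPM in Sham ipsilateral and between 126 and 183 CPM in MCAO ipsilateral, without overlap. On the contralateral side they summed to between 134 and 185 CPM in sham and between 177 and 276 CPM in MCAO, with overlap. The neuronal sums thus differed without overlap between the sides of sham mice too. In each MCAO group 0 markers of these 3 lists were at 0 in all 3 libraries, and the part of these markers in the Acer2 difference was not tested. The sums of the other lists overlapped between sham and MCAO on the ipsilateral side. On the contralateral side they did too, except for astrocytes (58.9 to 92.2 CPM in sham, 37.3 to 54.3 CPM in MCAO). In cells sequenced in bulk, fewer cells of a type and less RNA per cell cannot be told apart. Without MCAO contralateral replicate 1 the contralateral log2 difference of Acer2 was 1.35. Over all settings tried its log2 difference lay between 1.32 and 1.83 on the ipsilateral side and between 1.33 and 1.77 on the contralateral side.

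The other ceramidases overlapped between sham and MCAO on both sides. Asah1, the lysosomal acid ceramidase (chromosome 8, 41340197 to 41374773), was at 84.3, 143 and 86.3 CPM in Sham ipsilateral and at 132, 137 and 112 CPM in MCAO ipsilateral, ranges that overlap. Acer3, an alkaline ceramidase of the endoplasmic reticulum and Golgi (chromosome 7, 98206389 to 98321208), was at 18.0, 47.0 and 25.9 CPM in Sham ipsilateral and at 25.2, 24.0 and 39.2 CPM in MCAO ipsilateral. On the contralateral side of MCAO mice both were lowest in replicate 1, at 39.4 CPM for Asah1 and 3.30 CPM for Acer3, and the other libraries of that group lay at 156 and 166 CPM and at 25.4 and 29.6 CPM. That library is the one least like the others. Acer3 was at 34.6, 36.5 and 34.8 CPM with the Hdac2 ECKO label, while libraries with the Ezh2 ECKO label held 32.7, 34.3 and 11.9 CPM, with no overlap but by a margin of less than 1 CPM.

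As a share of the 3 ceramidases, each taken per kilobase, Acer2 made up 39.1 ± 6.49% in Sham ipsilateral and 59.1 ± 7.14% in MCAO ipsilateral (SD, n = 3 each). On the contralateral side the shares were 33.2 ± 2.90% and 62.2 ± 21.9%. The lowest MCAO share was 43.7%, just under the highest sham share of 45.0%, so the shares overlapped where the levels did not. The highest share, 86.4%, came from MCAO contralateral replicate 1, in which Asah1 and Acer3 were low, and the other libraries of that group were at 56.6% and 43.7%. Shares were 51.0 ± 5.70% in the libraries labelled Hdac2 ECKO and 56.2 ± 16.1% in those labelled Ezh2 ECKO. The ceramidase with the larger share was Asah1 in each of the 6 sham libraries and Acer2 in 5 of 6 MCAO libraries. The shares hold the sham and MCAO levels for which Acer2 was chosen, so they are a description with no test.

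**Figure D2:**
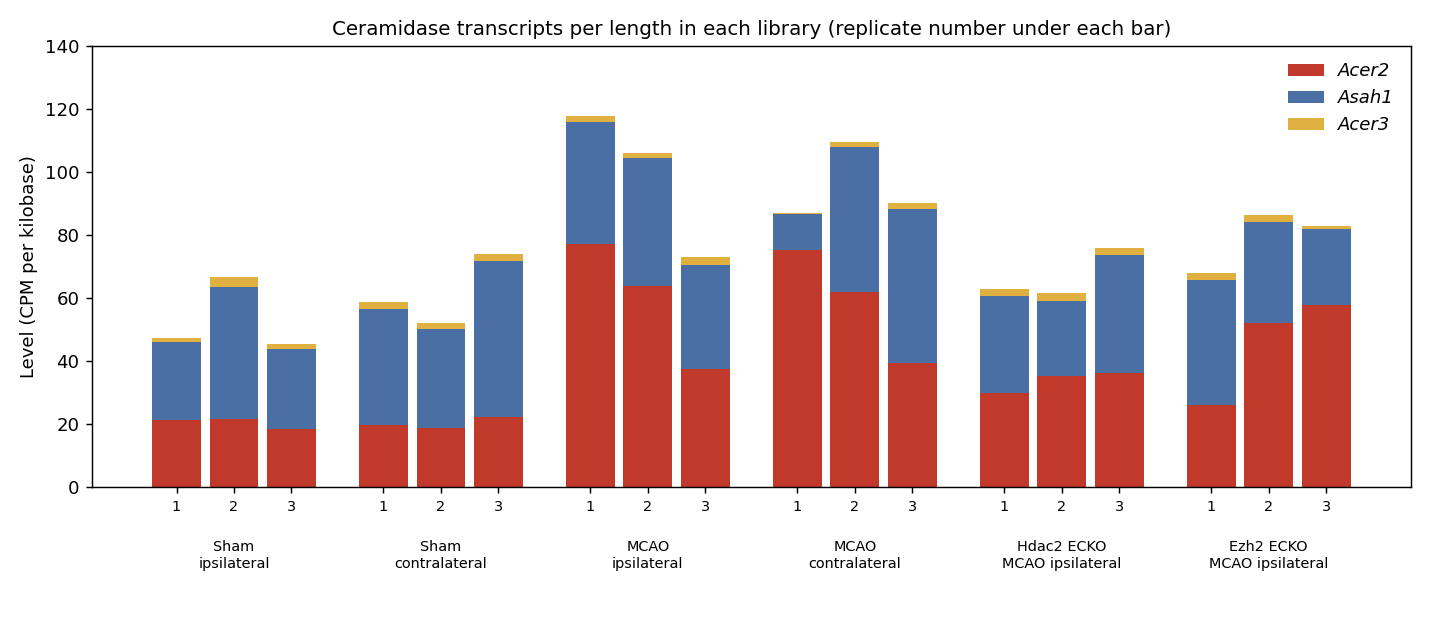
Stacked level of Acer2 (red), Asah1 (blue) and Acer3 (yellow) in CPM per kilobase from 0 (vertical axis) for each of the 18 libraries, in groups with the replicate number under each bar. The red share is 30.2% to 45.0% in the 6 sham libraries and 43.7% to 86.4% in the 6 MCAO libraries, while Acer3 is a thin layer throughout.

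Of the enzymes that make ceramide, Degs1, the dihydroceramide desaturase that performs the last step of new synthesis (chromosome 1, 182275772 to 182282804), lay above sham after occlusion. It was at 54.1, 77.5 and 47.6 CPM in Sham ipsilateral and at 109, 149 and 82.1 CPM in MCAO ipsilateral. Contralateral libraries were at 75.5, 62.9 and 102 CPM in sham and at 157, 116 and 137 CPM after occlusion. The MCAO libraries of each side were above the sham libraries of that side, by a log2 difference of 0.92 ± 0.33 on the ipsilateral and 0.77 ± 0.33 on the contralateral side, given as a description. With the Hdac2 ECKO label Degs1 was at 116, 91.1 and 108 CPM, again above every Sham ipsilateral library (0.81 ± 0.33, edgeR adjusted p = 0.565). With the Ezh2 ECKO label it was at 99.1, 53.8 and 98.8 CPM and overlapped both groups. The overlap with Sham ipsilateral came from replicate 2 alone, a library among those least like the others. The other libraries with that label were above every Sham ipsilateral library.

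Cers2, the ceramide synthase that prefers very long fatty acids (chromosome 3, 95314791 to 95323599), showed its lowest levels under the deletion labels. It was at 81.2, 76.4 and 57.2 CPM in Sham ipsilateral and at 103, 154 and 80.8 CPM in MCAO ipsilateral. The contralateral libraries were at 64.6, 66.6 and 74.1 CPM in sham and at 105, 80.9 and 103 CPM after occlusion, with no overlap. The libraries labelled Hdac2 ECKO were at 35.2, 72.2 and 53.8 CPM and those labelled Ezh2 ECKO at 57.2, 50.9 and 33.9 CPM. All 6 libraries with a deletion label were below all 3 MCAO ipsilateral libraries. The log2 difference from MCAO ipsilateral was -1.07 ± 0.34 for the Hdac2 ECKO label (edgeR adjusted p = 0.394). It was -1.25 ± 0.34 for the Ezh2 ECKO label (95% interval -1.97 to -0.54), which came close to the threshold of 0.05 without passing it (edgeR adjusted p = 0.0604). The latter passed in only 3 of 17 settings. These were DESeq2 (adjusted p = 0.046), edgeR without MCAO ipsilateral replicate 3 (adjusted p = 0.0444) and edgeR without the 2 libraries least like the others (adjusted p = 0.0419). Replicate 3 was the lowest MCAO ipsilateral library for Cers2, and leaving out the 2 libraries was a setting chosen after seeing the data. Over all settings the adjusted p of this difference ran from 0.0419 to 0.353. Both comparisons share the MCAO ipsilateral libraries. Cers2 overlaps Setdb1 on the opposite strand by 75 bases, and the strand setting of the counting is not given in the sources used here.

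The sphingosine kinases differed in level. Sphk1, the inducible and mainly cytosolic kinase (chromosome 11, 116530925 to 116536674), was close to the detection limit, with counts of 0, 0 and 2 in Sham ipsilateral and of 38, 10 and 13 in MCAO ipsilateral. Counts were 0, 4 and 1 in Sham contralateral and 12, 4 and 0 in MCAO contralateral. The libraries labelled Hdac2 ECKO had 0, 2 and 0 counts and those labelled Ezh2 ECKO had 0, 6 and 2. A floor of 3 counts equals 0.0619 to 0.101 CPM, depending on the library, and 11 of the 18 libraries were under it. MCAO ipsilateral libraries thus held all counts of 10 or more except the 12 of MCAO contralateral replicate 1. Of the 61 counts in MCAO ipsilateral, 38 came from replicate 1. Sphk1 passed the filter on low counts only through MCAO libraries, so its higher counts there are a description and support nothing.

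Sphk2, the mostly nuclear and mitochondrial kinase (chromosome 7, 45709467 to 45718002) made up nearly all kinase transcript, and its groups overlapped in every comparison made. It was at 33.9, 16.7 and 25.2 CPM in Sham ipsilateral, at 20.4, 22.7 and 64.1 CPM in MCAO ipsilateral and at 22.1, 21.2 and 76.2 CPM in MCAO contralateral. The libraries labelled Hdac2 ECKO were at 55.8, 55.3 and 33.1 CPM, and those labelled Ezh2 ECKO ran from 5.72 to 44.1 CPM. The replicate labelled 3 was the highest MCAO library on both sides, the reverse of its place for Acer2. Sphk2 overlaps Rpl18 by 2546 bases and Dbp by 737 bases on the opposite strand, and Rpl18, a ribosomal protein gene, averaged 412 CPM, so reads of these genes could be mixed if strand was not used.

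Sgpl1, the lyase that breaks S1P down irreversibly, was lowest with the Ezh2 ECKO label, at 1.83, 1.28 and 3.41 CPM. It was at 10.3, 11.9 and 6.26 CPM in Sham ipsilateral, at 4.97, 8.69 and 14.7 CPM in MCAO ipsilateral and at 15.2, 4.15 and 5.29 CPM with the Hdac2 ECKO label. Every library labelled Ezh2 ECKO was below every library of these other ipsilateral groups. The log2 difference of the Ezh2 ECKO label was -2.12 ± 0.70 from MCAO ipsilateral (95% interval -3.57 to -0.66, edgeR adjusted p = 0.112). It was -2.12 ± 0.70 from Sham ipsilateral (edgeR adjusted p = 0.530), and the Hdac2 ECKO label was 1.92 ± 0.70 above the Ezh2 ECKO label (edgeR adjusted p = 0.298). With DESeq2 the difference from MCAO ipsilateral passed (adjusted p = 0.0273), the only pass in 17 settings. The other comparisons did not pass with DESeq2 (adjusted p = 0.0701 and 0.0675). The 3 comparisons share the Ezh2 ECKO libraries, so they are not independent. Without the 2 libraries least like the others, among them Ezh2 ECKO replicate 2, the log2 difference of Sgpl1 from MCAO ipsilateral was -1.82 (edgeR adjusted p = 0.141). In the contralateral groups Sgpl1 ran from 5.62 to 8.54 CPM in sham and from 4.46 to 16.2 CPM after occlusion.

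The libraries labelled Ezh2 ECKO also stood apart in blood content. Their 8 red cell markers summed to between 71.8 and 671 CPM, against 19240 to 298000 CPM in the other 15 libraries. Their 6 neuronal markers summed to between 47.2 and 78.5 CPM, against 126 to 183 CPM in MCAO ipsilateral and 57.4 to 111 CPM in Sham ipsilateral. With the globin genes left out of the table, no member was called in this comparison either, and the part of other differences in cell content was not tested.

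Spns2, the transporter that exports S1P from endothelial cells (chromosome 11, 72451638 to 72489904), was the gene whose sides did not overlap. It was at 25.0, 21.4 and 21.7 CPM in Sham ipsilateral and at 15.8, 20.3 and 17.1 CPM in Sham contralateral. After occlusion it was at 24.4, 23.5 and 33.2 CPM on the ipsilateral and at 8.41, 13.4 and 22.9 CPM on the contralateral side. The ipsilateral libraries were higher in both sham and MCAO mice, but neither side difference passed the test. In MCAO the log2 difference was 0.86 (95% interval -0.11 to 1.83) and in sham 0.36 (-0.61 to 1.32), with edgeR adjusted p = 1 for both. The lowest value came from MCAO contralateral replicate 1, and without the 2 libraries least like the others the MCAO side difference of Spns2 was 0.58. Libraries labelled Hdac2 ECKO were at 27.3, 30.5 and 18.1 CPM and those labelled Ezh2 ECKO at 42.8, 11.9 and 31.2 CPM. Spns2 overlaps Mybbp1a by 131 bases on the opposite strand.

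S1pr1, the main S1P receptor of endothelial cells (chromosome 3, 115710433 to 115715072), was abundant in all groups. It was at 516, 485 and 532 CPM in Sham ipsilateral and at 557, 720 and 459 CPM in Sham contralateral. After occlusion it was at 830, 707 and 261 CPM on the ipsilateral and at 533, 780 and 331 CPM on the contralateral side, so the MCAO groups spread to both sides of sham. The libraries labelled Hdac2 ECKO were at 577, 345 and 404 CPM, and those labelled Ezh2 ECKO at 525, 430 and 589 CPM. As for Acer2, the replicate labelled 3 was the lowest of its group in MCAO on both sides. The log2 difference from MCAO ipsilateral was -0.44 (95% interval -1.23 to 0.35, edgeR adjusted p = 0.733) for the Hdac2 ECKO label and -0.22 (-1.01 to 0.57, edgeR adjusted p = 0.752) for the Ezh2 ECKO label.

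**Figure D3:**
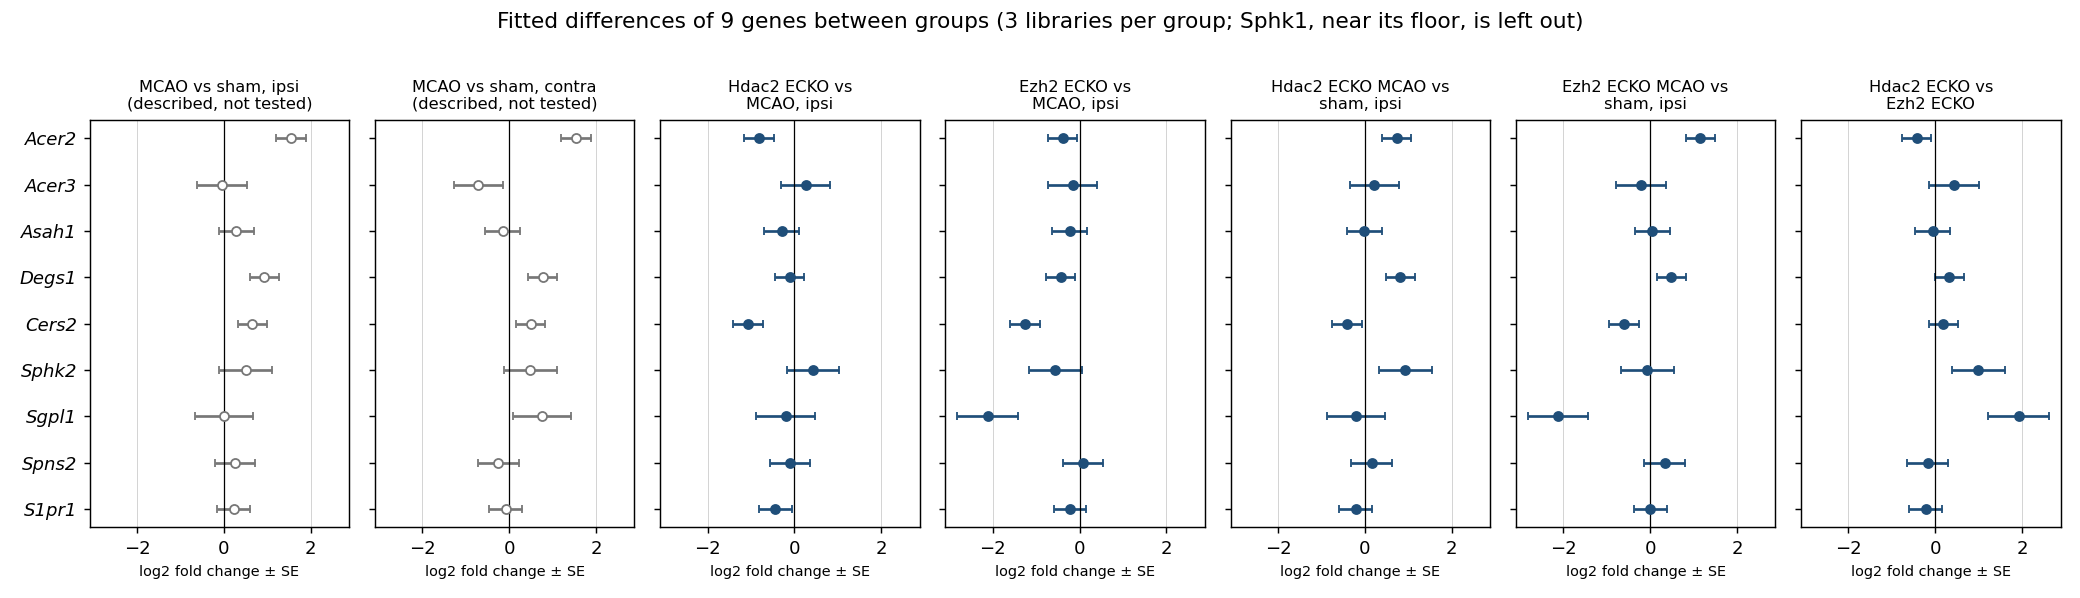
Fitted log2 fold change with its standard error (horizontal axis) of 9 genes (rows) in 7 comparisons of 3 against 3 libraries; open grey points are the occlusion differences by which Acer2 was chosen and filled points are tested differences. Sphk1 is left out because it is near its detection floor. Cers2 lies at -1.07 and -1.25 against MCAO ipsilateral, Sgpl1 at -2.12 with the Ezh2 ECKO label, and no filled point passed the test.

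Counted over the 10 genes, edgeR called 0 in each of the 8 comparisons tested, and limma-trend also called 0 in each. With the Ezh2 ECKO label against MCAO ipsilateral, 1.46% of all tested genes were called. There, 2 of 10 genes (Cers2 and Sgpl1, both lower) had an unadjusted p under 0.05, against 19.2% of all genes, and 3 of 10 (Cers2, Sgpl1 and Sphk1, all lower) did not overlap, against 29% of all genes. These shares of members are near those of all genes. DESeq2 called 2 of the 9 to which it gave an adjusted p, Cers2 and Sgpl1. With the Hdac2 ECKO label against MCAO ipsilateral, 0.0117% of all genes were called, and 3 of 10 genes (Acer2, Cers2 and Sphk1, all lower) had an unadjusted p under 0.05, against 9.85% of all genes. The same 3 did not overlap, against 19.9% of all genes. Acer2 was chosen for being high in MCAO and Sphk1 passed the filter only through MCAO libraries, so neither gene supports a count against MCAO ipsilateral. DESeq2 called 0 of the 9 genes to which it gave an adjusted p (Sphk1 had none) with the Hdac2 ECKO label.

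Between the deletion labels 0.123% of all genes were called, Sgpl1 alone of the 10 had an unadjusted p under 0.05 (11.2% of all genes), and Acer3 and Sgpl1 did not overlap (12.1% of all genes). Against Sham ipsilateral, the Hdac2 ECKO label gave 0% of all genes called, with 2 of 10 genes (Acer2 and Degs1, both higher) under an unadjusted p of 0.05 and without overlap, against 7.14% and 15.3% of all genes. The Ezh2 ECKO label gave 0.041% of all genes called, 2 of 10 under an unadjusted p of 0.05 (Acer2 higher, Sgpl1 lower) against 6.52%, and 3 of 10 without overlap (those and Cers2, lower) against 13.7%. For Cers2 the highest Ezh2 ECKO library and the lowest Sham ipsilateral library were both at 57.2 CPM, a margin lost on rounding. The sham values of Acer2 were part of its choice, so nothing is read from its place in the counts against sham. DESeq2 called 0 of the 9 genes with an adjusted p in these 3 comparisons. Between the sides, 0% of all genes were called in MCAO and in sham. Of the 10 genes 0 had an unadjusted p under 0.05, against 3.08% and 1.85% of all genes, and Spns2 alone did not overlap in either, against 5.37% and 15.4%. For the difference between the side differences, 0% of all genes were called and 0 of the 10 had an unadjusted p under 0.05, against 3.38%, and DESeq2 called 0 of the 10 in these 3 comparisons too. Both sides of Acer2 were part of its choice, so nothing is read from its place in these 3 comparisons.

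For the occlusion differences, which entered the choice of genes, 3 of 10 did not overlap on the ipsilateral side (Acer2, Degs1 and Sphk1, all higher), beside 27.7% of all genes. On the contralateral side 3 of 10 did not overlap (Acer2, Degs1 and Cers2, all higher), beside 9.65% of all genes. Over both sides only Acer2 did not overlap, beside 1.42% of all genes. Nothing is read from these counts.

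The wider sphingolipid pathway was described through 67 genes of the table in 9 roles, of which 63 passed the filter, 53 of them outside the 10. Among these 53, edgeR called 1 gene in 1 of the 8 comparisons and 0 in the others. Degs2, the paralogue of Degs1 that also hydroxylates dihydroceramide, was lower with the Ezh2 ECKO label (107, 78.5 and 90.9 CPM) than in MCAO ipsilateral (344, 484 and 306 CPM). The groups did not overlap, and the log2 difference was -2.04 ± 0.45 (edgeR adjusted p = 0.0324). The call was lost without any of 5 single libraries: MCAO ipsilateral replicate 1 (adjusted p = 0.0903), MCAO ipsilateral replicate 2 (0.179) or Ezh2 ECKO replicates 1 (0.0517), 2 (0.0933) or 3 (0.118), each with edgeR. It was also lost with a covariate for background reads (edgeR adjusted p = 0.132), while the log2 difference stayed between -2.21 and -1.38 over all settings. Degs2 overlaps Evl by 9806 bases on the opposite strand. With the Hdac2 ECKO label Degs2 was at 151, 202 and 202 CPM and in Sham ipsilateral at 198, 152 and 139 CPM.

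In that comparison the 53 genes had a median log2 difference of -0.17, with 31 negative and 22 positive. The 10 genes had a median of -0.41, with 9 negative and 1 positive, and all 17094 genes had a median of 0.17. Of the 53, 6 were lower and 4 higher at an unadjusted p under 0.05, and DESeq2 called 6. With the Hdac2 ECKO label against MCAO ipsilateral, medians were -0.02 for the 53, -0.25 for the 10 and 0.11 for all genes, with 4 of the 53 lower and 1 higher at an unadjusted p under 0.05 and 1 called by DESeq2. Another scaling (relative log expression) moved the median of all genes with the Ezh2 ECKO label to 0.36 and with the Hdac2 ECKO label to 0.20, and that of the 53 turned positive, to 0.01 and 0.07. Of the 10 genes, 8 were negative with that scaling under either label, with medians of -0.22 (Ezh2 ECKO) and -0.17 (Hdac2 ECKO). Acer2 was chosen for being high in MCAO, and Sphk1 passed the filter only through MCAO libraries. The medians and signs of the 10 genes against MCAO ipsilateral are therefore descriptions from which nothing is read.

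By role, the list genes with the highest level per kilobase showed where the 10 genes stand in the pathway. In the step that starts synthesis, Sptssa, a small subunit of serine palmitoyltransferase, was at 323 CPM per kilobase and its regulator Ormdl2 at 56.7, although Ormdl2 overlaps Sarnp and Dnajc14. Degs2 (89.8) and Cers5 (13.8), another ceramide synthase, flanked Degs1 and Cers2. Asah2, the neutral ceramidase, was at 1.03 CPM per kilobase over all libraries and Acer1 at 0.0491. With the Hdac2 ECKO label the mean of Asah2 was 2.73 CPM per kilobase, against 2.30 for Acer3 in the same group. That Asah2 mean was raised by a single library at 48.6 CPM, so Asah2 and Acer3 are not ordered in this group. Among genes of S1P breakdown, the lipid phosphatase Plpp1 (54.3) and the S1P phosphatase Sgpp2 (28.9) were above Sgpl1 (1.29).

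For export, Mfsd2b, the S1P exporter of red cells and platelets, was at 0.172 CPM per kilobase and Apom, the S1P carrier of plasma lipoproteins, at 0.509, against 5.56 for Spns2. Most of the Apom level came from 8.44 CPM in MCAO contralateral replicate 1, with 0.147 CPM or less in each other library. Of the other S1P receptors S1pr4 reached 2.42 and S1pr2 0.136 CPM per kilobase, against 175 for S1pr1. The sphingomyelin synthase Sgms1 (131) and the phosphodiesterase Smpdl3a (83.5) were the highest of the sphingomyelin genes. Of these named genes, edgeR called only Degs2. Acer1 and Apom did not pass the filter and were not tested. DESeq2 also called Asah2.

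Asah2 was at 48.6, 23.3 and 23.6 CPM with the Hdac2 ECKO label, while MCAO ipsilateral had 7.00, 2.38 and 10.1 CPM and the libraries labelled Ezh2 ECKO 15.0, 3.19 and 3.61 CPM. All 3 libraries labelled Hdac2 ECKO were above every library of both other groups. The log2 difference from MCAO ipsilateral was 2.29 ± 0.71 and that from the Ezh2 ECKO label 2.13 ± 0.71, with adjusted p = 0.394 and 0.260 by edgeR and 0.0189 and 0.0249 by DESeq2. Asah2 was singled out after its values had been seen.

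**Figure D4:**
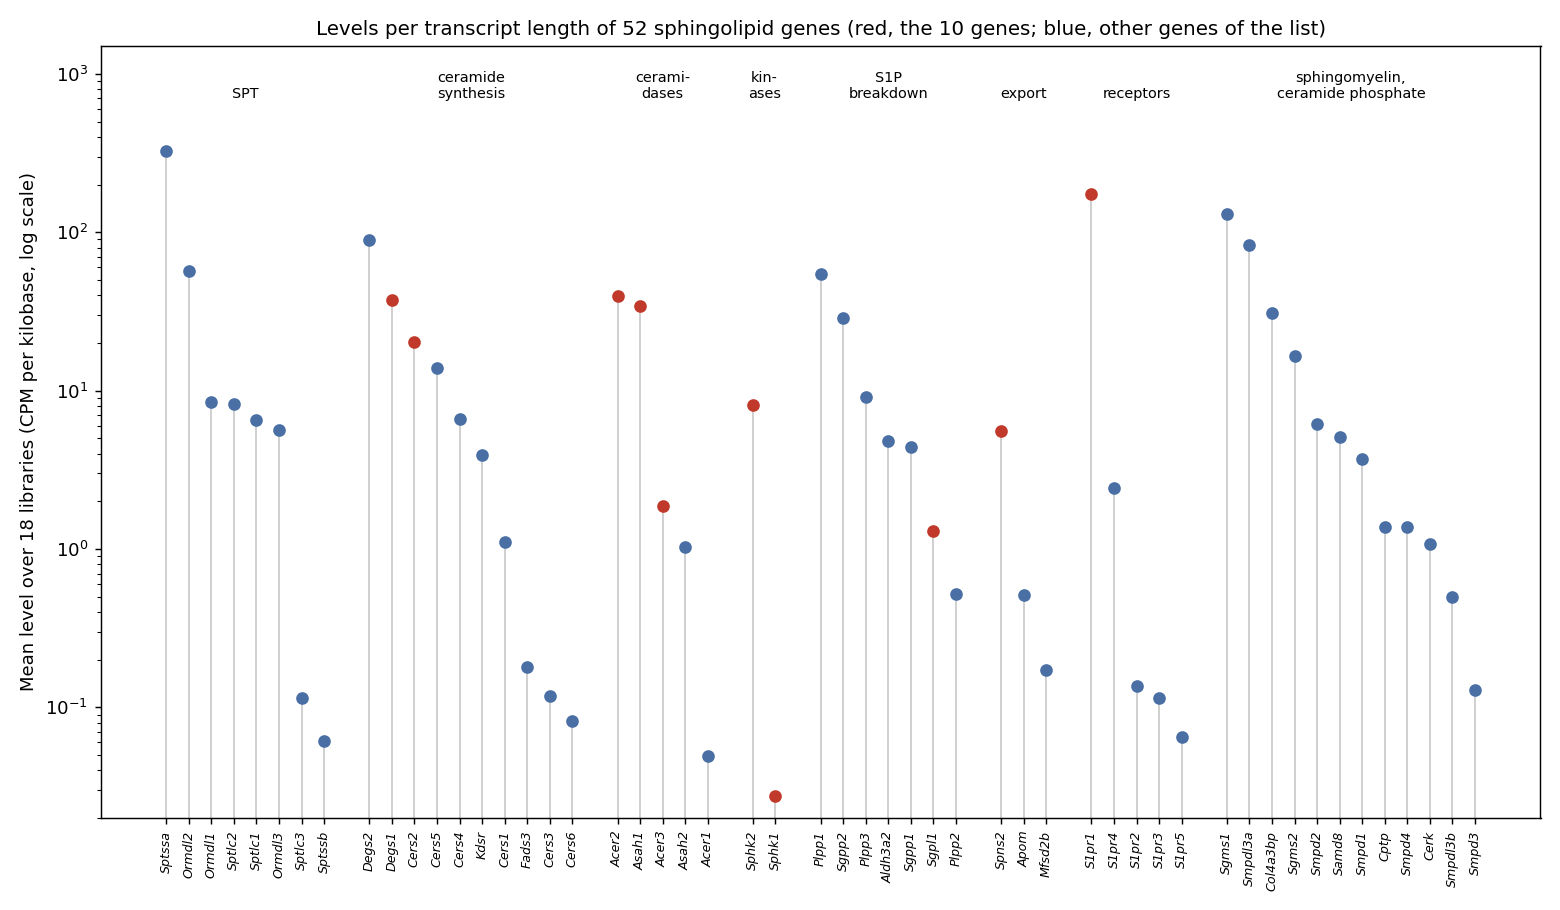
Mean level over 18 libraries in CPM per kilobase (vertical axis, log scale) of 52 sphingolipid genes in 8 of the 9 roles (glycosphingolipid genes are not plotted) along the horizontal axis; red points are the 10 genes and blue points the others. S1pr1 at 175 stands far above the other receptors, of which S1pr4 at 2.42 is the next, and Sphk1 at 0.0275 is the lowest of all points.

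The pattern of Acer2 over the 18 libraries was most like that of 5 genes, named by the highest Pearson correlation of log2 CPM among the 7813 genes that averaged 10 CPM or more. These were E2f4 (r = 0.798, Spearman's rho = 0.822), Adgrl4 (0.797 and 0.820), Capza1 (0.789 and 0.781), Banp (0.771 and 0.701) and Zfp639 (0.758 and 0.792). E2f4 encodes a cell cycle transcription factor, Adgrl4 an endothelial adhesion receptor and Capza1 an actin-capping subunit. All points share the same libraries, depth and groups, so the values are descriptions. Adgrl4 was at 920 ± 225 CPM in Sham ipsilateral, at 1383 ± 290 CPM in MCAO ipsilateral, at 1266 ± 76.0 CPM with the Hdac2 ECKO label and at 1321 ± 165 CPM with the Ezh2 ECKO label (SD, n = 3 each).

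Among the 45 pairs of the 10 genes the highest correlation over 18 libraries was 0.774, for Acer3 and Asah1, but with a rank correlation of 0.302, and both were lowest in MCAO contralateral replicate 1. Without the 2 libraries least like the others it was 0.426 over 16 libraries (rho = 0.188), and the highest of the 45 was then 0.720, for Acer2 and Degs1. Over all 18 libraries Acer2 and Degs1 reached 0.620 (rho = 0.701), which fell to 0.141 after each group's mean was taken away. Sphk2 and Spns2 went the other way, from 0.518 to 0.824 within groups (0.350 and 0.654 without those 2 libraries). Acer2 and Spns2 ran opposite to each other within groups (-0.672, and -0.691 without those 2 libraries). Acer2 and Acer3 did so over all libraries (-0.470), more weakly without those 2 libraries (-0.353, rho = -0.253). Correlation with the summed level of 1466 olfactory and vomeronasal receptor genes, taken as a measure of background reads, was -0.602 for Asah1, -0.547 for Sphk2 and 0.176 for Acer2 (rho = -0.556, -0.286 and -0.127). That measure was highest in the same 2 libraries, and without them the Pearson values were -0.435, -0.176 and -0.287.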

How the data were processed

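Messenger RNA of sorted cells was made into libraries with a SMART-Seq v4 PLUS kit and sequenced in pairs on a NovaSeq X Plus, per the labels' protocols. The deposited values are counts per gene. Their file name calls them normalized, but they are whole numbers with unequal totals, and 77.3% to 89.4% of counts from 1 to 20 per library were even, as when both mates are counted. FastQC, cutadapt, STAR, featureCounts, DESeq2 and build mm10 are listed in the submitters' processing notes, without versions, and strand setting and annotation are not given in the sources used here. The deposited feature length per gene was used for levels per kilobase. No sample was missing for any column (0 unmapped), and 0 pairs of libraries had identical counts.

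Counts were scaled by TMM and tested with edgeR 4.0.16 (R 4.3.3, quasi-likelihood F-test) in 1 fit of 6 group means to 18 libraries, over the 17094 genes that reached 10 counts in 3 or more libraries. Adjusted p-values are Benjamini-Hochberg values over these genes, called under 0.05. The common biological coefficient of variation was 0.774. MCAO against sham was described without a test, because Acer2 was chosen on it. DESeq2 1.42.0 and limma 3.58.1 (limma-trend, prior count 2) were alternatives. Counts were simulated for the Ezh2 ECKO label against MCAO ipsilateral with 200 genes changed, drawn from genes averaging at least 10 CPM. Every other gene kept the same mean in all 18 libraries, so the differences in cell content and background between the real libraries were not simulated. There, edgeR called 0% of changes of log2 1 (16516 genes run), 53.5% of log2 2 (16498 genes, 5 false calls) and 91% of log2 3 (16534 genes, 10 false calls). Sgpl1 (7.95 CPM) and Sphk1 (0.131 CPM) average less than the minimum of 10 CPM, so these shares do not cover them. The shares hold only for the simulated setting and are not those of the deposited counts.

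The 10 genes, the wider list of sphingolipid genes, the marker lists and the tests were chosen with earlier results of these data known. Named from the wider list were called genes and, per role, the 2 genes with the highest level per kilobase outside the 10. Single genes of the glycosphingolipid role are not reported here. Sptssb, Acer1, Apom and S1pr5 were too low to test. Summed markers ranged over the libraries from 22.7 to 94.5 CPM for leukocytes and platelets, 30.8 to 92.2 for astrocytes, 3.19 to 210.5 for oligodendrocytes and 0.985 to 15.3 for fibroblasts, and the other lists are given with the results. Coordinates are on mm10 counted from 1. Promoters are the 250 bases before RefSeq starts (GRCm38.p6).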

Additional observations from a re-analysis of the deposited data

How the results depend on the processing

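The count of called genes among the 10 stayed at 0 in 7 of the 8 tested comparisons under every setting run, and in the remaining one, the Ezh2 ECKO label against MCAO ipsilateral, it was 2 with DESeq2, 1 without the 2 libraries least like the others (a setting chosen after seeing the data) and 0 to 1 when each replicate was left out. Cers2 there was -1.06 with DESeq2, -1.29 without those 2 libraries and -1.49 without MCAO ipsilateral replicate 3, and Sgpl1 was -1.94 with DESeq2. The log2 difference of Acer2 between MCAO and sham kept its direction in every setting, from 1.43 to 1.68 over both sides. Of the 80 differences of single members in tested comparisons, 41 kept their sign under every setting, 39 changed it under at least 1, and 2 were called under at least 1. The largest log2 size among those that changed sign was 1.43, for Sphk1, which is near its floor, between the sides in sham. Counts over all genes moved further. For the Ezh2 ECKO label against MCAO ipsilateral, the 250 calls became 1617 with DESeq2, 416 with limma-trend, 513 with a count minimum of 50, 485 with only the groups compared, 428 with halved counts, 13 with a background covariate, 1000 without the 2 libraries least like the others, and 5 to 24 without MCAO ipsilateral replicate 1 or 2 or Ezh2 ECKO replicate 2 or 3. The Hdac2 ECKO label against MCAO ipsilateral had 2 calls, and 239 with DESeq2, 62 without the 2 libraries, 0 to 10 under the other settings and 0 to 18 without single libraries. The deletion labels against each other had 21, and 647 with DESeq2, 3 without globin genes, 115 without the 2 libraries, 54 with the background covariate and 9 to 73 without single libraries. Against Sham ipsilateral, the Ezh2 ECKO label had 7, and 193 with DESeq2, 26 without the 2 libraries, 0 without globin genes and 3 to 15 without single libraries, and the Hdac2 ECKO label had 0, and 236 with DESeq2 and 45 without the 2 libraries. DESeq2 called 6 genes between the sides in MCAO, in sham and for their difference, each with 0 by edgeR. The cause of these differences was not tested.

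With the replicate number as a block, 0 of the 10 genes were called in each tested comparison, Degs2 was at -2.04 (edgeR adjusted p = 0.0558) with the Ezh2 ECKO label against MCAO ipsilateral, the count over all genes there was 12, and it was 9 between the deletion labels. Same-numbered libraries of opposite sides correlated, as deviations from their group means, at 0.365, 0.346 and -0.124 in sham and at 0.277, 0.361 and 0.036 in MCAO, and 4 of 6 matched their own number best. Since 2 of the 6 correlations were not over 0.1, the numbers were not taken as pairs, which does not show the libraries to be unpaired.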
